A study of Mus musculus with 6 samples.

Results

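The genes described here encode proteins of homologous recombination and of the Fanconi pathway, which repair double-strand breaks and interstrand crosslinks in DNA. The list held 31 mouse genes chosen by symbol, and 29 of them were measured among 19938 genes that the arrays could name. Xrcc2 and Rbbp8 had no probe set annotated to that single symbol and were not analysed here. Where a gene had more than 1 probe set, the brightest stood for it, which concerned Bard1 and Nbn.

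In homologous recombination a broken end is trimmed to single-stranded DNA, BRCA1 and its partners bring BRCA2 to it, and the single strand invades the intact sister chromatid and copies it. Branched DNA left by the invasion is then taken apart by helicases or cut by nucleases. In the Fanconi pathway a core complex with a ubiquitin ligase marks the clamp of FANCD2 and FANCI at a blocked fork, and the crosslink is cut out and repaired with the help of recombination. Because a sister chromatid is needed, the pathways act in S and G2 phase, and in resting hepatocytes of the adult liver many of these genes are known to be little expressed.

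The study compared AML-12 cells, a line of mouse hepatocytes, in which the mRNA of manganese superoxide dismutase (MnSOD, the product of Sod2) had been silenced (siMnSOD, called knockdown here) with AML-12 cells given a scrambled sequence (siScramble, called control here). Both groups carried the retroviral vector pSUPER.retro.puro with a hairpin, which in the knockdown was meant to silence only mildly, and both had been selected with puromycin for 2 weeks, so no group was free of virus or of selection. Each group had 3 arrays of total RNA, 1 per sample, made from different frozen batches of cells and called biological replicates 1 to 3. Whether the replicates go back to separate transductions is not stated, and a p-value here reflects only how much these 6 samples vary, which may in part be technical.

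The hairpin's target was lower in every knockdown sample. Sod2 had an intensity of 98.8, 121 and 52.3 on knockdown replicates 1, 2 and 3, against 248, 254 and 293 on the controls. Its log2 difference of −1.63 (SE 0.30, knockdown minus control) had an adjusted p of 0.037 in limma, and the call was lost when knockdown replicate 1 or 2 or control replicate 1 or 2 was left out (highest adjusted p 0.133). The label was checked against 12 hepatocyte markers, of which 10 were measured. Alb, Afp and Ttr, which define the cell type, lay under the background level of 19.4 intensity units in both groups, whereas the transferrin gene Trf, the apolipoprotein gene Apob, the regulator Hnf4a and the keratin genes Krt8 and Krt18 were far above it. The median intensity of all probe sets lay between 26.8 and 33.6 on the 6 arrays, and the arrays correlated at 0.976 or more with their own group on the log2 scale. Between the groups the correlations were 0.968 to 0.985. Control replicate 3 correlated more with knockdown replicate 3 (0.979) than with either other control (0.976 each).

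Most of the repair genes had higher values in the knockdown, and 8 of the 29 passed the test. These were Brca1, Rad54l, Rad54b, Mre11a, Eme1, Fanca, Fancm and Fanci, with rises of 1.58-fold (Mre11a) to 5.11-fold (Rad54l). No repair gene was lower past the test. Called means an adjusted p under 0.05 in limma over all tested rows, which was reached by 432 genes that rose (2.17%) and 316 that fell (1.58%). The shares of all genes given here include 6816 genes under the background level in both groups, as was 1 of the repair genes. Without genes whose mean was under that level, 3.72% of 12888 genes were called higher and 2.83% lower. The median log2 difference of the 29 genes was 0.75, beside 0.01 for all genes, and 28 of them were positive, beside 52.3% of all genes. RNA of whole cultures was measured, so a larger share of dividing cells and more RNA per cell cannot be told apart.

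In 22 of the 29 genes every knockdown array lay above every control array, as it did for 11.1% of all genes, and in 7 the groups overlapped. In no repair gene did every knockdown array lie below every control array, which was the case for 9.73% of all genes. An exact 2-sided permutation test over 3 against 3 arrays cannot go below p = 0.1, the value it gave for each of the 22. An unadjusted p under 0.05 in limma was found for 20 of the 29 and for 16.7% of all genes. The replicate numbers were taken to pair the arrays, and with the number as a block 12 of the 29 were called higher and none lower, beside 4.02% and 3.12% of all genes. Palb2, Brip1, Rad51ap1 and Fancd2 were the 4 added.

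**Figure D1:**
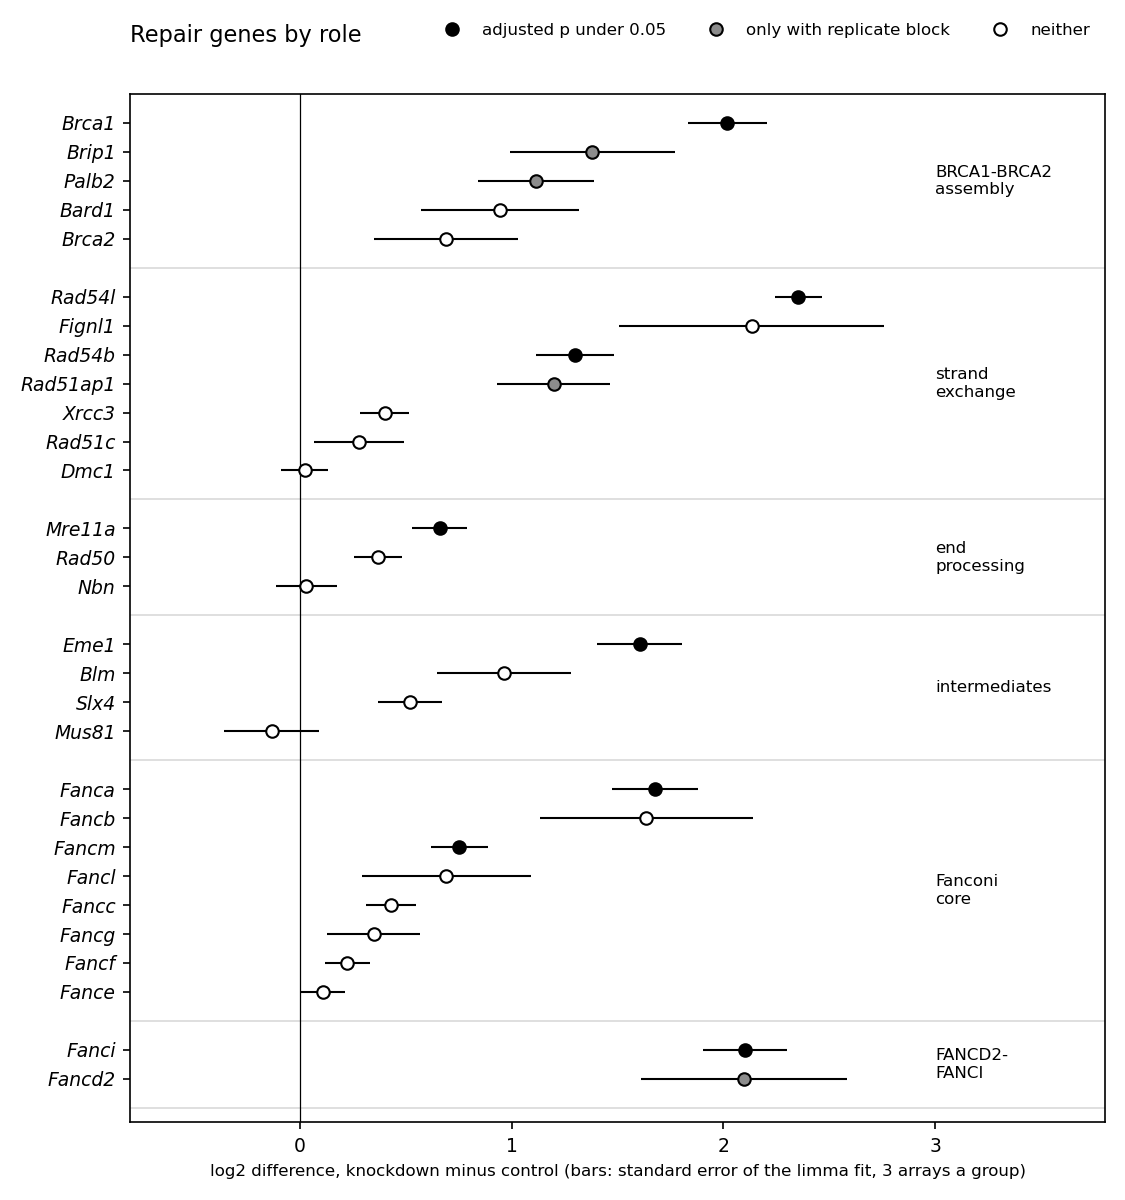
Log2 difference, knockdown minus control, of the 29 measured repair genes, with the standard error of the limma fit over 3 arrays a group as bars, in order of role and then of size. Black points passed an adjusted p of 0.05, grey points passed only with the replicate number as a block, and white points passed in neither fit. Every point but that of Mus81 lies to the right of 0, and each role except the FANCD2 and FANCI pair also holds genes that passed in neither fit.

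Among the genes of the BRCA1 and BRCA2 assembly at a break, Brca1 rose 4.05-fold, and the other 4 were higher without passing the test. Brca1, whose product steers breaks towards recombination, had intensities of 337, 321 and 272 on knockdown replicates 1, 2 and 3 and of 83.7, 90.3 and 58.6 on the controls. The lowest knockdown array was thus well above the highest control array, and control replicate 3 was the lowest of all. The log2 difference was 2.02 (SE 0.19, adjusted p = 0.0046 in limma), and the call held whichever array was left out (highest adjusted p 0.044).

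Bard1, the partner that BRCA1 needs for its ubiquitin ligase, had 106, 113 and 103 in the knockdown and 74.6, 79.9 and 29.0 in the controls. The groups did not overlap, but control replicate 3 stood far below the other controls, and the difference of 0.94 (SE 0.37) had an adjusted p of 0.27 in limma. Without that array it was 0.47 with an adjusted p of 0.037, and no other single omission gave a call (highest adjusted p 0.592 in limma). Its other probe sets gave 0.80 and 0.64. Brip1, the helicase that binds BRCA1, had 181, 163 and 130.2 in the knockdown and 84.7, 82.7 and 30.9 in the controls. It showed the same low control replicate 3, with a difference of 1.38 (SE 0.39, adjusted p = 0.122 in limma, 0.039 with the replicate block). Leaving that array out gave 0.90 with an adjusted p of 0.0178, and no other single omission gave a call (highest adjusted p 0.361 in limma).

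Palb2, the bridge between BRCA1 and BRCA2, had 96.8, 72.3 and 50.5 in the knockdown and 31.5, 42.3 and 26.0 in the controls. Its groups did not overlap, knockdown replicate 3 came close to control replicate 2, and the difference was 1.12 (SE 0.27, adjusted p = 0.084 in limma, 0.035 with the block). Brca2, which acts on the single-stranded DNA to prepare strand invasion, had 135, 55.9 and 96.7 in the knockdown and 67.4, 62.3 and 41.3 in the controls. Here knockdown replicate 2 fell among the controls, so the groups overlapped, and the difference of 0.69 (SE 0.34) had an adjusted p of 0.416 in limma.

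Of the 7 measured genes that act in strand exchange, Rad54l and Rad54b rose. Rad54l encodes a motor protein that drives strand invasion, and it had intensities of 229, 228 and 216 in the knockdown and of 45.4, 47.0 and 39.4 in the controls. The 3 arrays of each group were close together and the groups far apart, with a log2 difference of 2.35 (SE 0.11, adjusted p = 0.00105 in limma). This was the largest difference among the 29 genes, and the call held whichever array was left out (highest adjusted p 0.0163). Rad54b, its paralog, had 86.5, 73.0 and 74.3 in the knockdown and 32.7, 39.0 and 24.6 in the controls. These groups did not overlap either, and the difference was 1.30 (SE 0.18, adjusted p = 0.0167 in limma). Rad54b was no longer called when knockdown replicate 1, knockdown replicate 2 or control replicate 1 was left out (highest adjusted p 0.086).

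Fignl1, an ATPase of recombination, had 607, 657 and 505 in the knockdown and 229, 237 and 44.0 in the controls. Control replicate 3 was far below the other controls, and the difference of 2.13 had an SE of 0.62 and an adjusted p of 0.131 in limma. Without that array the difference was 1.33 with an adjusted p of 0.0034, and no other single omission gave a call (highest adjusted p 0.389 in limma). Rad51ap1, whose product stimulates pairing of the invading strand, had 75.3, 72.1 and 66.4 in the knockdown and 37.0, 40.7 and 19.8 in the controls. The groups were separate, with a difference of 1.20 (SE 0.27, adjusted p = 0.064 in limma, 0.035 with the block) that was 0.87 without control replicate 3 (adjusted p = 0.0063). Rad51ap1 was called in no other single omission (highest adjusted p 0.239 in limma).

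Xrcc3 and Rad51c, whose products form a complex, did not pass the test. Xrcc3 had 64.4, 72.7 and 68.1 in the knockdown and 46.3, 53.8 and 55.5 in the controls, and the groups did not overlap. Its difference of 0.40 (SE 0.12) had an adjusted p of 0.127 in limma. Rad51c had 64.5, 65.9 and 107 in the knockdown and 62.9, 57.2 and 70.7 in the controls. Only knockdown replicate 3 lay above all controls, and the difference of 0.28 (SE 0.21) had an adjusted p of 0.735. The meiotic recombinase gene Dmc1 lay between 13.2 and 15.5 on all 6 arrays, under the background level, so that no change could be seen.

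The nuclease complex that trims broken ends was represented by 3 genes, of which Mre11a, the nuclease, rose. Mre11a had 386, 410.5 and 376 in the knockdown and 280.4, 252 and 214 in the controls. The groups did not overlap, and the difference was 0.66 (SE 0.13, adjusted p = 0.044 in limma). This call held only when control replicate 3 was the array left out (highest adjusted p 0.207 among the others). Rad50, the ATPase that tethers the ends, had 454, 379 and 397 in the knockdown and 310.4, 303 and 335 in the controls. All knockdown arrays were higher, with a difference of 0.37 (SE 0.11, adjusted p = 0.146). Nbn, the subunit that recruits the kinase ATM, had 159.8, 148 and 135 in the knockdown and 157, 158 and 120.4 in the controls. These groups overlapped, and the difference of 0.03 had a 95% interval of −0.31 to 0.37.

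Of the 4 genes that resolve joined DNA molecules, Eme1 rose 3.04-fold. Its product is the partner of the MUS81 nuclease, which cuts branched DNA. Eme1 had 147, 129 and 114 in the knockdown and 46.1, 52.0 and 32.0 in the controls. The groups were well separated, with a difference of 1.61 (SE 0.20, adjusted p = 0.011 in limma), and the call was lost when knockdown replicate 1 or 2 was left out (highest adjusted p 0.076). Mus81 itself had 320.5, 323 and 236 in the knockdown and 376, 367 and 233 in the controls. Replicate 3 was low in both groups, the groups overlapped, and the difference of −0.13 had a 95% interval of −0.66 to 0.40.

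Blm, the helicase that dissolves double Holliday junctions with topoisomerase III alpha, had 175, 145 and 128 in the knockdown and 98.3, 98.4 and 45.1 in the controls. Its groups did not overlap, control replicate 3 was again the lowest, and the difference was 0.96 (SE 0.32, adjusted p = 0.175 in limma, 0.055 with the block). It was 0.59 without control replicate 3 (adjusted p = 0.059). Slx4, the scaffold that gathers structure-specific nucleases, had 141, 147 and 141 in the knockdown and 116, 106 and 80.8 in the controls. All knockdown arrays were higher, with a difference of 0.52 (SE 0.15, adjusted p = 0.127).

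In the Fanconi core complex Fanca and Fancm rose, and the other 6 genes had positive differences that did not pass the test. Fanca, a scaffold subunit, had 217, 238 and 230.2 in the knockdown and 88.4, 79.5 and 51.8 in the controls. The groups were far apart, and the difference was 1.68 (SE 0.20, adjusted p = 0.0098 in limma). The call was lost without knockdown replicate 1 or 2 (highest adjusted p 0.072). Fancm, the translocase that anchors the core complex on DNA, had 55.7, 43.7 and 53.0 in the knockdown and 32.0, 31.1 and 27.1 in the controls. The controls were close together and below all knockdown arrays, with a difference of 0.75 (SE 0.13, adjusted p = 0.0345 in limma). As with Mre11a, the call held only when control replicate 3 was the array left out (highest adjusted p 0.132 among the others).

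Fancb and Fancl belong to the catalytic module, in which FANCL is the ubiquitin ligase. Fancb had 223, 183 and 182 in the knockdown and 97.6, 98.4 and 25.8 in the controls. Its difference of 1.64 (SE 0.50, adjusted p = 0.149 in limma) was 0.99 without control replicate 3, with an adjusted p of 0.0065. Fancb was called in no other single omission (highest adjusted p 0.381 in limma). Fancl had 167, 174 and 149 in the knockdown and 140.2, 147 and 50.2 in the controls. In both genes the groups were separate and control replicate 3 stood far below the other controls, and without it the difference of Fancl went from 0.69 to 0.19 (adjusted p = 0.419).

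Fancc, Fance and Fancf form the module that receives the substrate. Fancc had 50.9, 49.9 and 51.0 in the knockdown and 42.4, 37.4 and 33.3 in the controls, with a difference of 0.43 (SE 0.12, adjusted p = 0.115). The Fancf arrays did not overlap either, with a difference of 0.22 (SE 0.11), whereas Fance differed by 0.11 (SE 0.11) with overlapping groups. Fancg, which binds FANCA, had 55.2, 47.4 and 52.8 in the knockdown and 30.6, 39.0 and 56.1 in the controls. Here control replicate 3 was the highest of the 6 arrays, so the groups overlapped, with a difference of 0.35 (SE 0.22) that was 0.58 without that array (adjusted p = 0.053).

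Of the clamp genes at the centre of the Fanconi pathway Fanci rose, and Fancd2 was higher without passing the test on all 6 arrays. Fanci had 179, 188 and 183 in the knockdown and 46.2, 53.6 and 31.3 in the controls. The knockdown arrays were within a narrow range far above the controls, and the difference was 2.10 (SE 0.20, adjusted p = 0.0048 in limma), called whichever array was left out (highest adjusted p 0.048). Fancd2 had 255, 283 and 213 in the knockdown and 87.0, 90.8 and 24.8 in the controls. Its controls were spread more widely, and the difference of 2.10 (SE 0.49) had an adjusted p of 0.0705 in limma, or 0.034 with the block. Without control replicate 3 the difference of Fancd2 was 1.48 with an adjusted p of 0.0029, and that of Fanci was 1.88. Fancd2 was called in no other single omission (highest adjusted p 0.259 in limma).

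**Figure D2:**
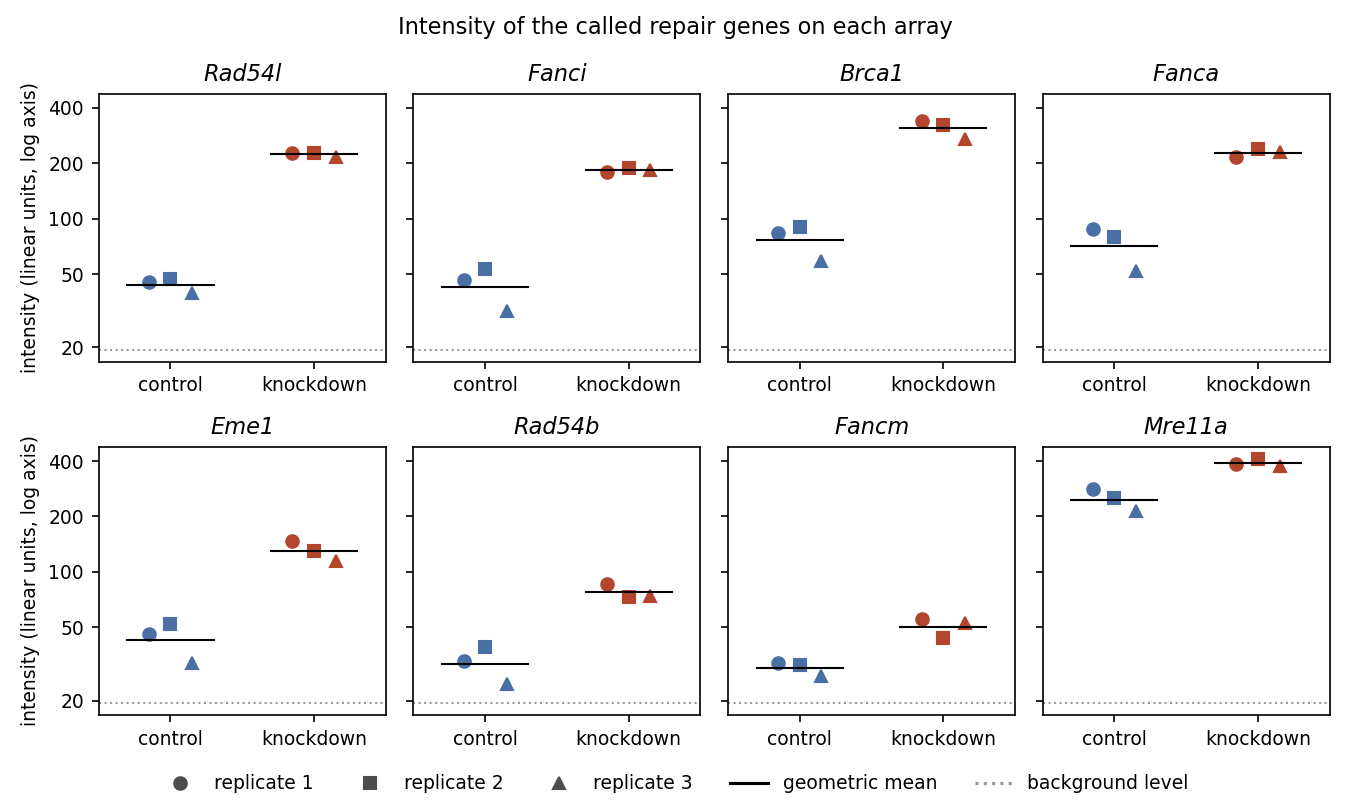
Intensity of the 8 called repair genes on each array, on a log axis, with controls in blue and knockdown in red, the replicate number as the symbol, the geometric mean as a line and the background level of 19.4 as a dotted line. In every panel the 3 knockdown arrays lie above the 3 control arrays, and control replicate 3 is the lowest control.

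Some genes whose products work as partners changed by unequal amounts. The 6 pairs given here were chosen with the values known, and their ratios are a description. Because of that choice a test of these ratios cannot support a difference, and no p-value is given for them. On each array the log2 ratio of Eme1 to Mus81 was −1.17 ± 0.14 (SD, n = 3) in the knockdown and −2.90 ± 0.11 in the controls, which is a shift of 1.74 towards Eme1. The shift was 1.90, 1.50 and 1.81 within replicate numbers 1, 2 and 3. For Rad54l against Rad54b the ratio was 1.53 ± 0.12 in the knockdown and 0.47 ± 0.21 in the controls, a shift of 1.05. The ratio of Mre11a to Nbn moved from 0.78 ± 0.09 in the controls to 1.41 ± 0.12. In these 3 pairs, as in Brca1 against Bard1, the arrays of the groups did not overlap.

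For Brca1 against Bard1 the shift of 1.07 rested on replicate numbers 1 and 2 (1.51 and 1.33) more than on number 3 (0.39). The ratio of Brca1 to Brip1 shifted by 0.64 with overlapping arrays. For Fanci against Fancd2 the shift was 0.01, with 0.40, 0.17 and −0.55 within numbers 1, 2 and 3. A ratio within an array shows unequal change, and it does not show that either partner stayed the same.

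**Figure D3:**
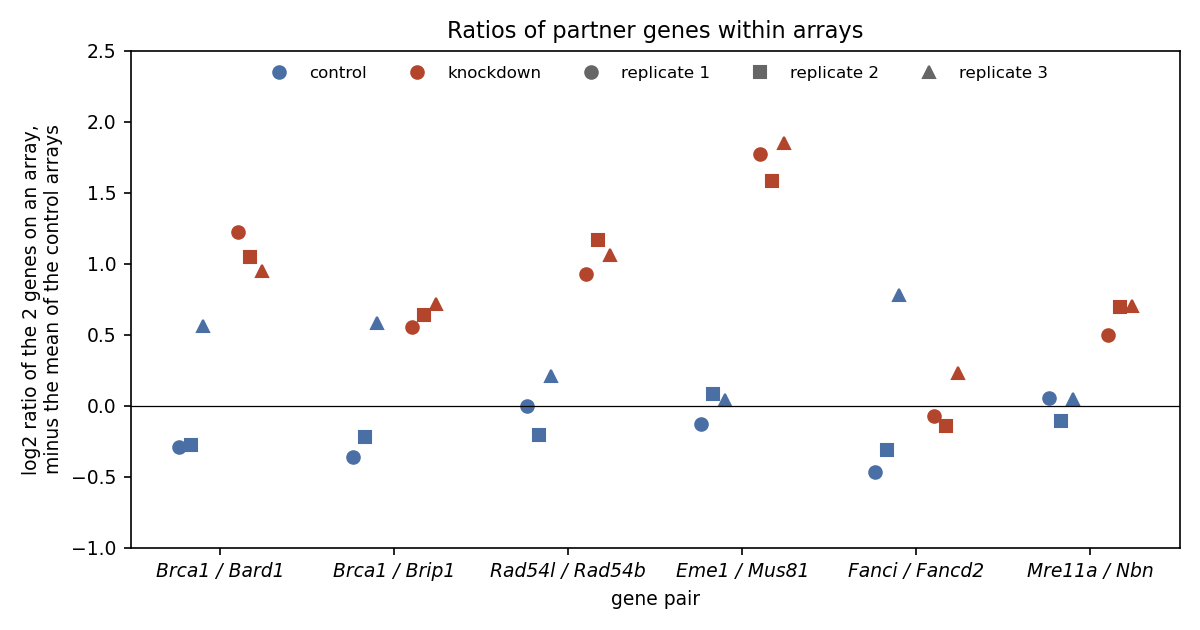
Log2 ratio of 2 partner genes on each array, with the mean of the 3 control arrays subtracted for each pair, controls in blue and knockdown in red, and the replicate number as the symbol. The knockdown arrays of Eme1 against Mus81, Rad54l against Rad54b and Mre11a against Nbn lie above all their controls, and those of Fanci against Fancd2 lie among them.

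Control replicate 3 had low values for most of the repair genes. It was the lowest of the 6 arrays for 23 of the 29 (79.3%), beside 18.3% of all genes. The median of its log2 value minus the mean of the other controls was −0.54 for the repair genes and 0.10 for all genes. For knockdown replicate 3, against the other knockdown arrays, it was −0.08 for the repair genes and 0.08 for all genes. On control replicate 3 the lowest value was that of Fignl1, −2.41. Sod2 was highest on that control array, at 293, and lowest on knockdown replicate 3, at 52.3.

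The difference was largest within replicate number 3 for 24 of the 29 genes, beside 7507 of all 19938 genes. The median over the repair genes was 0.83, 0.50 and 1.23 within numbers 1, 2 and 3. Within these numbers 27, 26 and 27 of the 29 were positive, beside 10563, 10117 and 10214 of all 19938 genes. In all 3 numbers together 23 of the 29 were positive, beside 22.6% of all genes. Without control replicate 3, 14 of the 29 were called higher, beside 5.61% of all genes, and the median was 0.58. The 6 genes added, Bard1, Brip1, Rad51ap1, Fignl1, Fancb and Fancd2, were called in no other single omission. With only numbers 1 and 2 in the fit, 20 of the 29 were called higher, beside 11.8% of all genes, among them all 8 called on the 6 arrays. With control replicate 3 or with both arrays of number 3 left out, no repair gene was called lower, beside 5.61% and 9.69% of all genes. The cause of the low values on control replicate 3 was not tested.

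**Figure D4:**
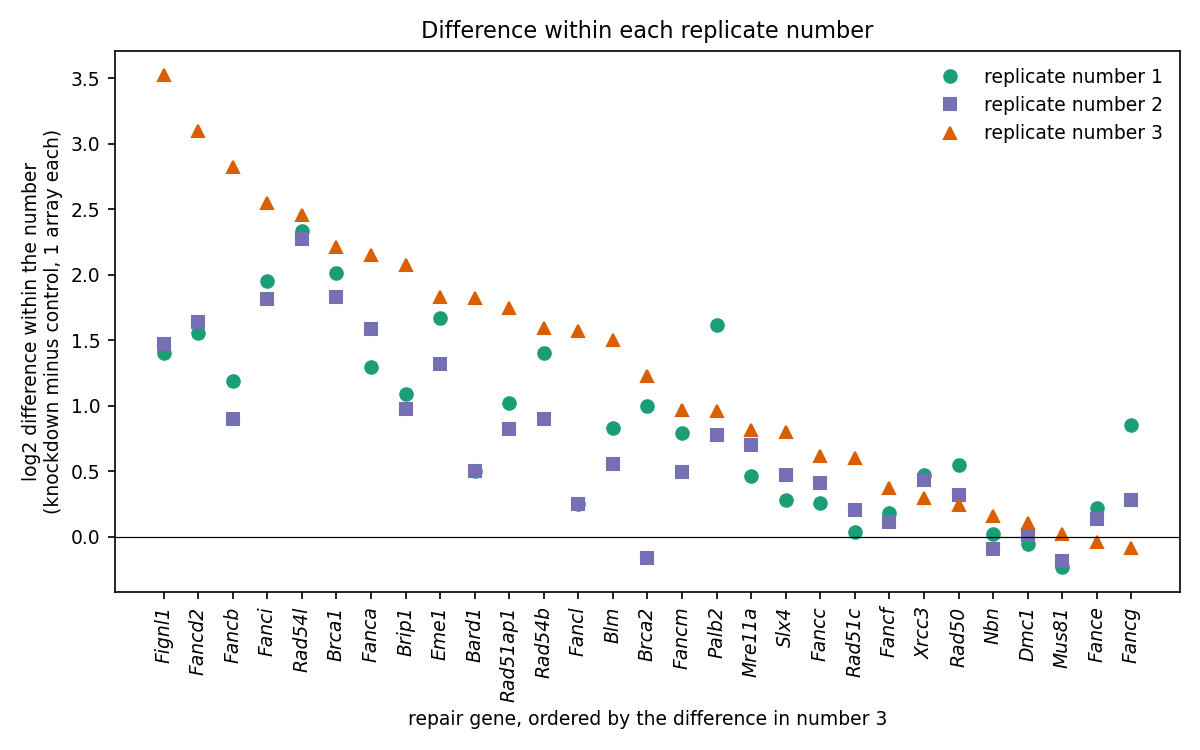
Log2 difference between the knockdown and the control array of the same replicate number, 1 array each, for the 29 repair genes in order of the difference within number 3. Triangles (number 3) lie above the other symbols for 24 genes, among them Rad54l and Brca1, whose symbols all lie well above 0.

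Proliferation markers moved with the repair genes. All 14 measured markers of 15 listed had every knockdown array above every control array, and 9 were called higher. Of all genes 11.1% were separated this way and 2.17% were called higher. The median log2 difference of the markers was 2.15, beside 0.75 for the repair genes. The summed intensity of the markers was 12097 to 12961 on the knockdown arrays and 2196 to 4824 on the controls. Ccne1, the cyclin that starts S phase, rose by 2.34 (SE 0.12) and the replicative helicase subunits Mcm2 and Mcm5 by 1.71 (SE 0.10) and 2.76 (SE 0.24). E2f8 (2.78), E2f1 (1.56) and Mybl2 (1.93), transcription factors of the cell cycle, rose too, as did Rrm2 (2.66) and Tk1 (2.51), which supply deoxynucleotides. Mki67 had a difference of 2.22 (SE 0.80) and did not pass, with an adjusted p of 0.215 in limma, as the control values were 423, 377 and 51.5. Control replicate 3 was the lowest array in both lists. The median deviation of a gene from its own mean was 0.52, 0.44 and 0.41 on the knockdown arrays and −0.19, −0.22 and −0.88 on the controls for the repair genes, and 1.03, 1.11 and 0.94 against −0.86, −0.75 and −1.88 for the markers. The part of proliferation in the differences of the repair genes was not tested.

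No marker of other cell types passed the test. Of 29 measured markers of macrophages, endothelial cells, stellate cells and lymphocytes none was called in limma and none had an unadjusted p under 0.05. Their summed intensity was 755 to 860.2 in the knockdown and 736 to 829 in the controls, and 16 lay under the background level in both groups. The differences with the smallest p were those of Cd14 (0.26), Csf1r (−0.27) and Lyz2 (−0.21) for macrophages, Vwf (−0.17), Stab2 (−0.05) and Kdr (0.02) for endothelial cells, Lrat (−0.13), Des (−0.14) and Col1a1 (0.05) for stellate cells, and Ms4a1 (0.13), Cd4 (−0.13) and Cd8a (0.18) for lymphocytes. Of the 10 measured hepatocyte markers Hnf4a rose by 1.09 (SE 0.14, adjusted p = 0.0132 in limma).

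Further genes of the same pathways were also mostly higher. Of 53 listed, 49 were measured and 43 were positive, beside 52.3% of all genes, with a median of 0.47. Of the 49, 11 were called higher and none lower, beside 2.17% and 1.58% of all genes. The largest difference was that of Dna2, a nuclease and helicase that trims ends over long distances, which had 187, 177 and 185 in the knockdown and 26.2, 31.1 and 35.8 in the controls (2.57, SE 0.14, adjusted p = 0.00105 in limma). In contrast to most of the 29 genes, its control replicate 3 was the highest control. Rpa1 and Rpa2, which coat single-stranded DNA, rose by 1.60 (SE 0.19) and 1.70 (SE 0.22). The resection nuclease gene Exo1 rose by 2.08 (SE 0.41, adjusted p = 0.045 in limma). Exo1 had 28.0 on control replicate 3 and 83.6 and 77.4 on the other controls. Cenps, Cenpx and Faap24, whose products bind FANCM on DNA, rose by 0.77, 0.97 and 0.80.

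The other called genes of that list were Mdc1 (1.26), an adaptor on damaged chromatin, and Rnf168 (0.80), a histone ubiquitin ligase. The helicase gene Recql (0.93) and Atad5 (1.22), which unloads the replication clamp, were called too. Of the 11 called genes only Dna2 and Mdc1 kept the call whichever array was left out. Exo1, Faap24 and Atad5 kept it only without control replicate 3 (highest adjusted p 0.202, 0.174 and 0.114 in limma). With the replicate block 15 of the 49 were called higher and 2 lower, beside 4.02% and 3.12% of all genes. The share called lower was thus near that of all genes. The lower ones were Abraxas1, a subunit of a BRCA1 complex (−0.51, adjusted p = 0.058 without and 0.037 with the block), and Rad52, an annealing factor (−0.50, adjusted p = 0.176 without and 0.035 with the block).

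**Figure D5:**
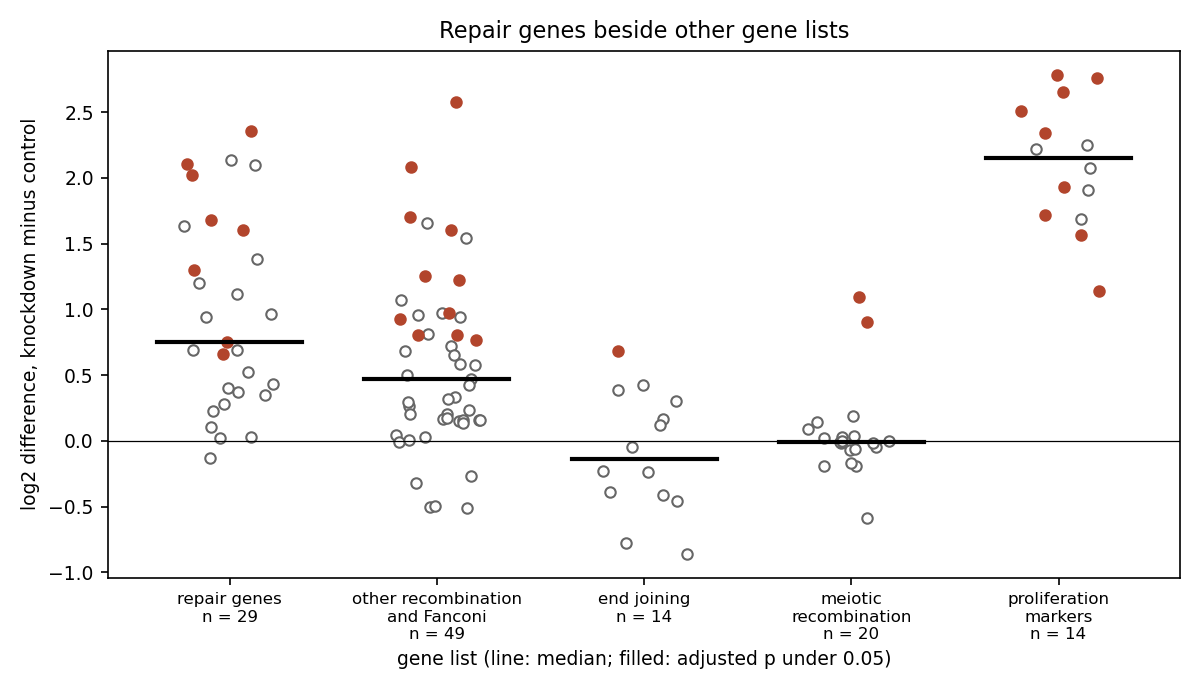
Log2 difference, knockdown minus control, of each measured gene of 5 lists, with the median as a line and filled points for an adjusted p under 0.05. The repair genes and the other recombination and Fanconi genes lie mostly above 0 (medians 0.75 and 0.47), the end joining and meiotic genes lie around it (−0.14 and −0.01), and all proliferation markers lie above 1.

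End joining, which seals breaks without a template, had 14 measured genes with a median of −0.14. Of these 6 were positive, beside 52.3% of all genes, and 1 was called higher, beside 2.17% of all genes. That gene was Mad2l2, a subunit of the shieldin complex that protects ends from trimming (0.69, SE 0.11, adjusted p = 0.0228 in limma). Lig4, the ligase of the pathway, had −0.46 (SE 0.10, adjusted p = 0.063, 0.040 with the block). Among 20 measured genes of meiotic recombination 13 lay under the background level, and the median was −0.01. Of the 20, 2 were called higher, beside 2.17% of all genes. They were Psmc3ip, a cofactor of DMC1 (1.10, SE 0.17), and Syce2, a part of the synaptonemal complex (0.90, SE 0.17).

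Promoters of the called repair genes with the largest differences are shown, since these genes were higher together. RefSeq sequence of GRCm38.p6 was at hand for 25 of the 31 genes, as windows from 250 bases before to 50 bases after the start. Not among them were Rad50, Fancd2, Xrcc2, Rad54b, Rbbp8 and Nbn. Each line gives the 150 bases before the start, 5′ to 3′ on the gene's strand, and capitals mark CCAAT. The stretches are chr4:116123691-116123840 (minus strand) for Rad54l, chr7:79392188-79392337 (plus strand) for Fanci, chr11:101551956-101552105 (minus strand) for Brca1, chr8:123318577-123318726 (minus strand) for Fanca and chr11:94653744-94653893 (minus strand) for Eme1.
Rad54l: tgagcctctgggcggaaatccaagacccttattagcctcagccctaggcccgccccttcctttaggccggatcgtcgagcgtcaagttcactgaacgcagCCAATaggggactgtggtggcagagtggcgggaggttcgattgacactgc
Fanci: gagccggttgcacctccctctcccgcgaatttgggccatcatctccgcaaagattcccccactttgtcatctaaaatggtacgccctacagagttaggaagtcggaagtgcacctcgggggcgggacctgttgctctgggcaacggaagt
Brca1: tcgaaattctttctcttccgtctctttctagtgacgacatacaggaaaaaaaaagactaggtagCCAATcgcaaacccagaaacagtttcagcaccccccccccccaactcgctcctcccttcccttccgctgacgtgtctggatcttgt
Fanca: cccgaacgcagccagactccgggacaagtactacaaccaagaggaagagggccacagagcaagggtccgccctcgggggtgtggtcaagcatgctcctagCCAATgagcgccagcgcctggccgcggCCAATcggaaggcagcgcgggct
Eme1: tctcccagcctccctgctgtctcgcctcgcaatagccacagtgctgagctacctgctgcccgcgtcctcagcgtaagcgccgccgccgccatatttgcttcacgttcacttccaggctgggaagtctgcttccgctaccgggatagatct

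In these stretches CCAAT, the core of the box bound by the factor NF-Y, stood 50 to 46 bases before the start of Rad54l and 86 to 82 before that of Brca1. Fanca had it at 50 to 46 and again at 23 to 19 bases before the start, and Fanci and Eme1 did not have it. Over the whole windows and both strands it was found in 15 of 25 repair genes (60.0%), in 38.2% of tested genes with a window and in 37.9% of all windows. Of the 7 called repair genes with a window 5 held it, and of the 18 measured but not called 10 did, so both shares were above that of tested genes. Among all genes called higher 51.8% held it, and 36.4% of those called lower.

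Words of E2F sites (TTTGGCGC, TTTCGCGC, TTTCCCGC and TTTGCCGC) were found in the windows of Bard1, Brca2, Dmc1, Fancg and Rad51c, which is 5 of 25 (20.0%), beside 3.08% of tested genes, 12.0% of all genes called higher and 3.72% of those called lower. None of these 5 repair genes was called, and the 7 called ones with a window held none. The cell cycle words TTTGAA and TTCGAA, the latter of which reads the same on both strands, were found for Bard1, Eme1 and Fignl1 (12.0%), beside 16.8% of tested genes. No searched word contains another. A match describes letters in a window and not binding, and a missing match says only that these letters are not there.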

How the data were processed

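Total RNA of 6 samples was hybridised to the Affymetrix Mouse Gene 1.0 ST chip. The deposited values are linear intensities that the authors had normalized. Per the submitters' processing notes this was done by RMA, whereas the labels' design text names MAS5. Software versions, the background correction and the annotation of probes were not given in the sources used here. How this affects single values cannot be checked from the table. The number of arrays limits the precision.

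Of 35557 probe sets 21789 had 1 symbol in a platform annotation, 1621 several and 12147 none. For 21698 of those with 1 symbol the Entrez identifier was found in RefSeq and the RefSeq symbol was used, whether or not it differed. The brightest probe set stood for each of 999 genes that had more than 1, which left 21559 tested rows and 19938 named genes, without a filter on low values. The test was lmFit and eBayes of limma (version 3.58.1, R 4.3.3) on log2 intensity with group as the only term, with Benjamini-Hochberg adjustment over all tested rows and a threshold of 0.05. Fold changes are antilogs of the log2 difference, and errors are the SE of the fit or the SD over 3 arrays. The background level is the 95th percentile of the means of 1027 olfactory receptor genes (4.28 on the log2 scale). The fit was tested on simulated data with 50 genes changed at each fold. It called 5 of the 50 at 1.5-fold, 19 at 2-fold, 43 at 4-fold and 48 at 8-fold, with 1 false call. A gene that did not pass may therefore have changed.

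Deviations of same-numbered arrays from their group means correlated at 0.376, 0.326 and 0.553 over the 19938 named genes. Each was above the limit of 0.1 set for pairing, and the number was used as a block in an alternative fit only. Knockdown replicate 1 with control replicate 2 (0.451) and knockdown replicate 2 with control replicate 1 (0.359) also passed that limit. For each of these knockdown arrays the value was higher than with the same-numbered control (0.376 and 0.326). The check therefore sets number 3 apart, but it cannot show that numbers 1 and 2 pair the arrays. What a number stands for is not stated. The text names Sod2, every repair gene of the list, and of each other list the called genes, up to 8 by smallest p, or the 3 of smallest p where none passed. Exo1, Atad5, Faap24, Abraxas1, Rad52, Lig4 and Mki67 were named after their values were seen. The repair genes, the lists, the background level and the alternatives were chosen with earlier results of these data known. Alternatives covered centring, quantile normalization, probe set choice, dim genes, the variance prior, array weights, an offset of 16, the replicate block and single arrays left out.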

Additional observations from a re-analysis of the deposited data

How the results depend on the processing

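Of the repair genes 8 were called higher. The count was 12 with the replicate block, 6 with arrays centred, with all probe sets tested or with an intensity trend in the prior, which ended the calls of Mre11a and Fancm, and 21 with array weights. It was 3 to 20 when arrays were left out: 3 without knockdown replicate 1 or 2, 5 without control replicate 1 and 20 without both arrays of number 3. Brca1, Rad54l and Fanci kept the call in each of these single omissions. No setting called a repair gene lower, and the median stayed between 0.58 and 0.96. Differences near 0 changed sign and were not called in any of these settings. The log2 difference of Dmc1 was −0.0077 with array weights and −0.051 to 0.066 with arrays left out, the log2 difference of Nbn was −0.011 with quantile normalization, −0.022 with array weights and −0.099 to 0.097 with arrays left out, and the log2 difference of Mus81 was −0.36 to 0.016 with arrays left out. Sod2 lost its call with arrays centred (adjusted p = 0.074, or 0.069 on the medians of all probe sets), with all probe sets tested (0.063) and when the array of knockdown replicate 1 (0.102), knockdown replicate 2 (0.072), control replicate 1 (0.118) or control replicate 2 (0.133) was left out. Of all genes 432 were called higher and 316 lower. The counts were 801 and 623 with the block, 284 and 205 centred on the medians of tested rows, 365 and 140 centred on those of all probe sets (a setting added after seeing the data), 278 and 154 with all probe sets tested, 2486 and 2188 with array weights, and 52 to 2343 and 25 to 1932 with arrays left out. Further recombination and Fanconi genes called higher were 7 when centred, 29 with weights and 2 to 30 with arrays left out. Those called lower were 2 with the block or quantile normalization, 5 with weights, 1 with the offset and 0 to 4 with arrays left out. End joining genes called higher were 3 with weights and 0 to 3 with arrays left out, and those called lower were 1 with the block, quantile normalization or the offset, 2 with weights and 0 to 2 with arrays left out. Meiotic genes called higher were 0 when centred, 1 when centred on all probe sets or with all probe sets tested and 0 to 2 with arrays left out, and those called lower were 1 with weights and 0 to 1 with arrays left out. Proliferation markers called higher were 14 with weights and 6 to 13 with arrays left out. The block changed no call among the repair genes other than the 4 it added. The cause of these shifts was not tested. Values near or under the background level, as for Dmc1, could not show a change.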
